A study of Mus musculus with 6 samples.

Results

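Clca1 is 1 of the 35275 genes in a table of read counts from whole mouse kidneys, chosen by its counts, which were already known to differ between severely and mildly injured kidneys. It is the row whose gene symbol reads Clca1 (ENSMUSG00000056025), and 1 row carries that symbol. The 3 severe kidneys came from wild-type (WT) C57Bl/6 mice after 35 min of ischaemia, and the 3 mild kidneys from WT C57Bl/6 mice after 20 min. In ischaemia-reperfusion injury the blood supply of the kidney is stopped and then restored, and all 6 kidneys were taken at day 28, when acute injury may have passed into chronic disease. Uninjured kidneys were not analysed here, so each difference is one of the longer against the shorter ischaemia. The columns of the table carry the numbers 13, 14 and 15 for the severe libraries and 7, 8 and 9 for the mild libraries. No label states whether each kidney is from a mouse of its own, and a p-value here reflects the spread of these libraries alone. The age of the mice is not given in the labels.

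The CLCA family was named for calcium-activated chloride channels, but its members are now regarded as secreted or membrane-anchored proteins that modulate chloride channels. Human CLCA1 carries a metalloprotease domain that cleaves the protein itself, and it raises the current through the calcium-activated chloride channel TMEM16A, which the gene Ano1 encodes. In the mouse the family lies as a row of neighbouring genes on chromosome 3, several of them recent copies of one another. Symbols in this row were reassigned, and the same name now stands for another gene than it once did. In the mouse airway the goblet cell gene once called gob-5 is the counterpart of human CLCA1, while the gene first called Clca1 in the mouse has been found, among other places, on lymphatic endothelium.

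The deposited table uses the older symbols. By gene ID, its Clca1 is the gene named Clca3a1 in GENCODE M21, its Clca2 is Clca3a2, and its Clca4 is Clca3b. Its Clca3, the goblet cell gene, is the gene that GENCODE M21 names Clca1. Its Clca5 is the present Clca2, its Clca6 the present Clca4a, AI747448 the present Clca4b, and Gm6289 the pseudogene Clca4c-ps. A value for Clca1 in this table is therefore a value for Clca3a1 and not for the goblet cell gene. All symbols that follow are those of the table.

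In the table Clca1 spans 144729677 to 144760977 of chromosome 3 (mm10, minus strand), with a gene length of 3798 bases. Toward higher coordinates the next genes are Clca2, from 144796559 to 144819494, and Clca4, from 144822623 to 144849357. The nearest gene toward lower coordinates is Sh3glb1, a membrane-curvature protein gene outside the family, from 144688844 to 144720323. No other gene of the table overlaps Clca1. The first 90 coding bases from the start codon, read from GENCODE M21 transcripts on GRCm38, show which members are close copies. Capitals mark the bases that differ from Clca1.
Clca1: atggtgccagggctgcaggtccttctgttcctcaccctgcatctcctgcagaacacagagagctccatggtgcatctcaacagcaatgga
Clca2: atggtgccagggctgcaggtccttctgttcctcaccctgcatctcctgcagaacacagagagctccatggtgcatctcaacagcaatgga
Clca4: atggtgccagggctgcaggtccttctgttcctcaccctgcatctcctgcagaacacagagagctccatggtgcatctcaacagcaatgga
Clca3: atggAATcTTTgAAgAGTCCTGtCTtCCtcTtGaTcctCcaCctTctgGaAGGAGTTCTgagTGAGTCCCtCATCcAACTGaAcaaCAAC
Clca1, Clca2 and Clca4 had the same 90 letters, while Clca3 differed from Clca1 at 57 of them.

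Over the whole coding sequence of 2709 bases, Clca1 and Clca2 differed at 79 positions and were 97.1% identical without gaps. The longest stretch without a difference was 242 bases. Of the 3749 windows of 50 bases in the longest Clca1 transcript, 22.8% occurred letter for letter in that of Clca2 and 3.47% in that of Clca4, against 0% in those of Clca3, Clca5, Clca6 and AI747448. The counting mode is not given in the sources used here, so a part of the reads of Clca1, Clca2 and Clca4 may have been dropped or assigned to the wrong copy, and their separate counts are uncertain to that extent. The window of the coding sequence where Clca1 and Clca2 differed most, coding bases 514 to 603, shows the kind of stretch where reads can be told apart. Capitals mark the 13 bases that differ between the 2 genes.
Clca1: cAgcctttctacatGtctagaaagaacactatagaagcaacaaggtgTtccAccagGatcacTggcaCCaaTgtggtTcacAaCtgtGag
Clca2: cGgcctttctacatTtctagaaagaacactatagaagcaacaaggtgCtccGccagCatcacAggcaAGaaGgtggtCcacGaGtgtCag

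Clca1 stood higher in severe kidneys. It had 450, 791 and 465 reads in severe libraries 13, 14 and 15, against 85, 152 and 86 reads in mild libraries 7, 8 and 9. As counts per 1000000 reads (CPM), with library sizes adjusted by TMM for differences in composition, these were 26.2, 44.5 and 28.6 CPM in the severe libraries, against 5.86, 9.10 and 5.90 CPM in the mild libraries. Each severe library lay above each mild one, with library 14 highest among the severe and library 8 highest among the mild. The means were 33.1 ± 9.96 CPM in severe and 6.95 ± 1.86 CPM in mild kidneys (SD, n = 3 each), a ratio of 4.76. The log2 fold change was 2.24 ± 0.26 (SE, edgeR). Clca1 was chosen for this difference, so it is given as a description with no test. In whole-kidney RNA, more cells that express Clca1 and more Clca1 RNA per cell cannot be told apart.

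**Figure D1:**
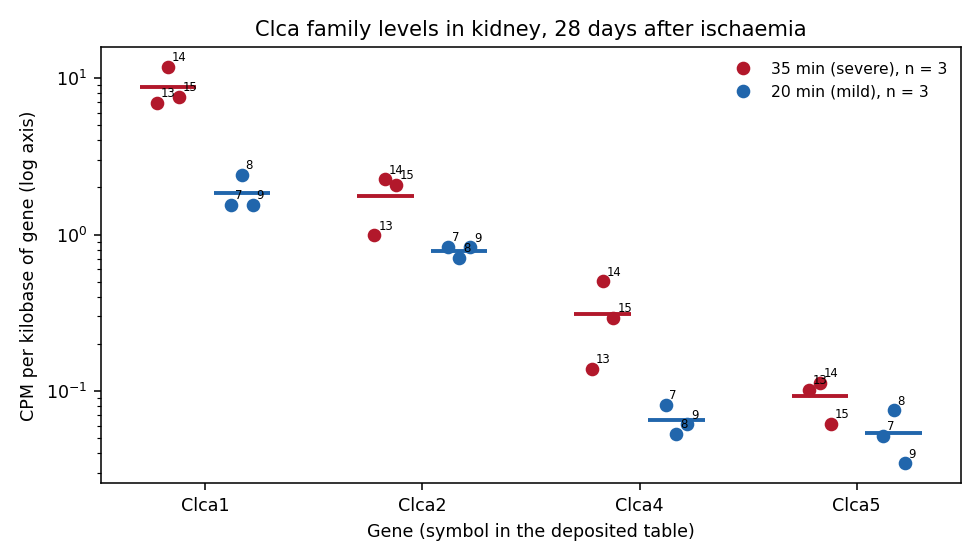
Levels of the 4 Clca genes with more than 5 reads in all, as CPM per kilobase of gene on a log axis, with severe libraries left of mild ones; points are libraries, labelled by number, and bars are group means (n = 3 each). Clca1 is the highest member in all 6 libraries, and the severe libraries of Clca1, Clca2 and Clca4 lie above the mild ones, while the groups overlap for Clca5.

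Clca1 was a gene of middling abundance in these kidneys, and its level per kilobase, averaged over the 6 libraries, was above that of 44.5% of the 14883 genes with enough reads for a test. Its difference was among the largest upward ones. In the edgeR fit 38 genes had a larger log2 fold change, and the median over all tested genes was 0.000194. The 3 severe libraries were far from alike in general. In the mean level of the gene lists described below, severe library 13 was mostly the closest to the mild ones. The exceptions were the chloride channel, blood endothelium and adipocyte lists, where severe library 14 was closest. The log2 level of Clca1 minus its own mild mean was 1.92, 2.69 and 2.05 in severe libraries 13, 14 and 15, against -0.21, 0.41 and -0.20 in mild libraries 7, 8 and 9. In severe library 13 only 12 tested genes had a larger difference than Clca1, against 70 in severe library 14 and 16 in severe library 15.

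Of the 7 other family members in the table, Clca2 and Clca4 had severe libraries that all lay above the mild ones, as Clca1 did. Over all tested genes, 17.9% had this pattern. Clca2, the closest copy, had 62, 146 and 124 reads in severe libraries 13, 14 and 15, against 44, 43 and 44 reads in mild libraries 7, 8 and 9. That is 6.48 ± 2.51 CPM in severe and 2.88 ± 0.261 CPM in mild kidneys (SD, n = 3 each). The groups did not overlap, but severe library 13, at 3.61 CPM, lay close to the highest mild library, at 3.03 CPM. The log2 fold change was 1.17 ± 0.31 and did not pass over all 14883 genes (quasi-likelihood test of edgeR, adjusted p = 0.108 after Benjamini and Hochberg, unadjusted p = 0.00605). Over all tested genes, 2 or 0.0134% passed an adjusted p of 0.05, with Slco2b1 higher and Trib2 lower (0.00672% in each direction; both named after their values were seen). Without severe library 13 Clca2 passed, at 1.47 (log2 fold change; edgeR adjusted p = 0.00379), where 21.5% of all genes tested passed as well. It also passed with DESeq2 (adjusted p = 0.0154), which called 7.87% of all tested genes, and with limma-voom with quality weights (adjusted p = 0.00336), which called 33.9%. Over the alternatives its edgeR, DESeq2 or limma adjusted p lay between 0.00336 and 0.322.

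Clca4 was a low gene. It had 8, 30 and 16 reads in severe libraries 13, 14 and 15, against 4, 3 and 3 reads in mild libraries 7, 8 and 9, in sum 54 in severe and 10 in mild kidneys. All severe libraries lay above the mild ones, but the counts did not reach the filter on low genes, and so Clca4 was not tested in the fit that gives the main values. With no filter it had a log2 fold change of 2.21 ± 0.58 and did not pass (edgeR adjusted p = 0.0845 over 22688 genes, unadjusted p = 0.00207). Without severe library 13 it reached the filter and passed, at 2.58 ± 0.48 (log2 fold change; edgeR adjusted p = 0.0108), among the 21.5% of all tested genes that did. Without any 1 of the mild libraries it reached the filter and did not pass (edgeR adjusted p = 0.275 to 0.322).

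Clca5 had 7, 8 and 4 reads in the severe libraries and 3, 5 and 2 reads in the mild libraries, and the groups overlapped. Clca3, the goblet cell gene, had 1 read in severe library 15 and 0 in the other libraries. AI747448 had 2 reads in severe and 1 in mild kidneys in sum, Clca6 had 0 in severe and 1 in mild kidneys, and Gm6289 had 0 in all libraries. A count of 0 allows up to 3 reads, which is 0.169 to 0.185 CPM in the severe and 0.180 to 0.207 CPM in the mild libraries, counting error only. No fold change is given for these 4 genes, whose counts lay at or under that limit in both groups.

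Clca1 also made up a larger share of the reads of its family in severe kidneys. The share was 85.4%, 81.0% and 76.2% in severe libraries 13, 14 and 15, against 62.5%, 74.5% and 63.2% in mild libraries 7, 8 and 9. For each read of Clca2 there were 7.26, 5.42 and 3.75 reads of Clca1 in the severe libraries, against 1.93, 3.54 and 1.96 in the mild libraries. Severe library 15 and mild library 8 lay close together on this ratio, and since it contains the count that chose the gene, it is not tested. Because the 2 copies can exchange reads, their counts were also added. The sum had 29.8, 52.7 and 36.2 CPM in severe libraries 13, 14 and 15, against 8.89, 11.7 and 8.92 CPM in mild libraries 7, 8 and 9. Its log2 fold change was 2.01 ± 0.22 (SE). Most reads of the sum are those of Clca1, so it is given as a description too.

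The gene on the other side of Clca1 was not called. Sh3glb1 had 81.0, 97.5 and 80.5 CPM in severe libraries 13, 14 and 15, against 80.6, 81.4 and 78.0 CPM in mild libraries 7, 8 and 9. The groups overlapped, at 0.11 ± 0.09 (log2 fold change; edgeR adjusted p = 0.474).

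The 250 bases before the RefSeq start of Clca1 are shown as the place where its transcription begins. They are read 5′ to 3′ in the direction of transcription from the minus strand of GRCm38.p6, at chr3:144760978-144761227. Capitals mark TATATA, which occurs here in 2 overlapping copies, and CCAAT, letter strings found in many promoters.
Clca1: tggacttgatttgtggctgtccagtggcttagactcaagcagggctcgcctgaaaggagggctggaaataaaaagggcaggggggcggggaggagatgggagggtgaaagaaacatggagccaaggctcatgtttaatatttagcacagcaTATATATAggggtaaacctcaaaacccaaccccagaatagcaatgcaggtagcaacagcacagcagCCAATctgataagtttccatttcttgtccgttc
On either strand, TATATA occurred in the Clca1 window and in 5.25% of all 32851 promoter windows of this length, CCAAT in the Clca1 window and in 33.8%, and the GATA string GATAAG in the Clca1 window and in 6.55%. The AP-1 string TGANTCA (6.75% of all windows), the STAT string TTCNNNGAA (7.02%), the TEAD string GGAATG (12.6%), the canonical TATAAA (12.4%), a STAT6 string with a wider spacer (5.85%) and the SMAD string CAGACA (17.1%) did not occur in the Clca1 window. These are matches of letters and not measured sites.

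The genes whose level was most like that of Clca1 over the 6 libraries were then listed. Likeness was taken as the root-mean-square difference between the log2 levels of 2 genes over the 6 libraries, each gene set against its own mild mean, so that 0 would be the same pattern with the same size. The nearest of all tested genes was Fbn2, a fibrillin of elastic microfibrils, at a difference of 0.309. Fbn2 had 4.54, 15.98 and 7.38 CPM in severe libraries 13, 14 and 15, against 1.59, 2.46 and 1.37 CPM in mild libraries 7, 8 and 9. Like Clca1, it was highest in library 14 among the severe and in library 8 among the mild kidneys. Mmp12, the macrophage elastase, came next at 0.324, with 23.1, 24.0 and 12.3 CPM in the severe libraries, against 3.52, 4.43 and 3.43 CPM in the mild libraries. Its library 13 was nearly as high as its library 14, and library 15 was its lowest severe value.

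The secreted guidance cue Sema3a followed at 0.333 and the gap junction gene Gjb5 at 0.364, both under 2 CPM on average in severe kidneys. Clec4n, which encodes the fungal lectin receptor Dectin-2 of myeloid cells, stood at 0.365 and F13a1, the A subunit of clotting factor XIII that macrophages also make, at 0.366. Further genes were the metalloprotease gene Adam12 at 0.376, the fibronectin gene Fn1 at 0.376, Mmp19 at 0.378, the sorting receptor gene Sorcs2 at 0.381, Cpxm1, a carboxypeptidase-like gene, at 0.384, the gelatinase gene Mmp2 at 0.393, the myeloid receptor gene Gp49a at 0.398, Col1a1, which encodes a chain of type I collagen, at 0.399 and the chemokine gene Ccl9 at 0.409. The next genes outside these 15 were Grem1 and Thbs2, both also at 0.409. These genes were picked for their likeness and are given with no test.

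**Figure D2:**
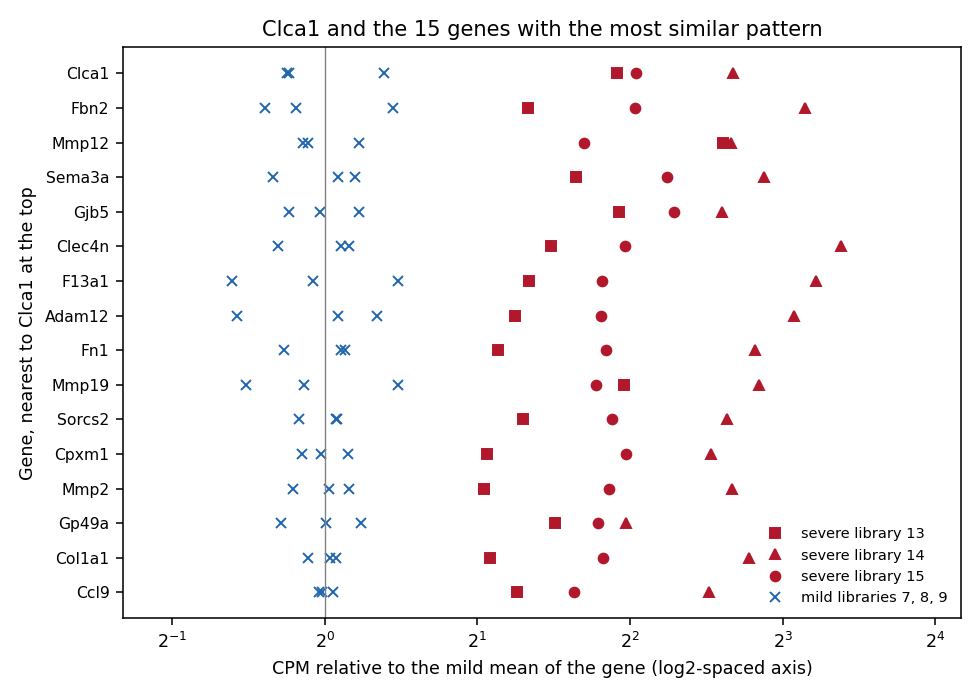
CPM of Clca1 and of the 15 genes nearest to it, each divided by the mean of its mild libraries (log2-spaced axis); red symbols are severe libraries 13, 14 and 15 and blue crosses mild libraries 7, 8 and 9. Severe library 14 is the highest for all 16 genes, and Clca1 has a higher library 13 than the matrix genes Fbn2, Fn1 and Col1a1. Mmp12, Mmp19 and Gjb5 have a higher library 13 than Clca1.

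Abundant matrix genes of this group moved more unevenly over the severe kidneys than Clca1. Fn1 had 276, 887 and 450.1 CPM in severe libraries 13, 14 and 15, against 135, 137 and 104 CPM in mild libraries 7, 8 and 9. Col1a1 had 265, 860.1 and 444 CPM in the severe libraries, against 128, 132 and 116 CPM in the mild libraries. Both were highest in library 14 and lowest in library 13 among the severe kidneys, as Clca1 was. The ratio of severe library 14 to severe library 13 was 1.70 for Clca1, and the median of this ratio was 2.88 over the 44 matrix genes. The ratio exceeded that of Clca1 for 38 of these 44, against 788 of the 2658 tested genes, or 29.6%, whose severe libraries all lay above the mild ones. The set of nearest genes depended on single libraries. Without mild library 7 it shared 4 of its 15 genes with the set above, without severe library 13 it shared 8, and Fbn2 and Sema3a were in all 9 sets that used this measure. With correlation as the measure, which leaves out the size of the difference, 1 of the 15 was kept, Gp49a.

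All 44 genes of the extracellular matrix list stood higher in every severe than in every mild library, which 17.9% of all tested genes did. None passed over all genes (edgeR and limma-voom, 0 each), 44 had an unadjusted p under 0.05 in the upward direction, against 15.8% of all tested genes, and DESeq2 called 43, against 6.91%. The same shares over all tested genes apply to the counts of the other lists. The median log2 fold change was 1.66, below the 2.24 of Clca1, and 5 of the 44 exceeded Clca1. Mmp12 stood at 2.38 ± 0.28 (log2 fold change; edgeR adjusted p = 0.0768), Tgfbi, a matrix protein gene induced by TGF-beta, 1.32 ± 0.20, the elastin gene Eln 1.13 ± 0.18 and the microfibrillar collagen gene Col6a1 1.62 ± 0.27 (edgeR adjusted p = 0.0867 for each of the 3). In 40 of the 44 the severe libraries ranked 14, 15, 13 from high to low, the order of Clca1, which 28.5% of all tested genes had. With library totals in place of TMM, 41 of the 44 had this order, and so had 50.3% of all tested genes. The list averaged 0.86, 2.23 and 1.42 above its mild mean (log2) in severe libraries 13, 14 and 15, against 0.10, 0.0795 and -0.18 in mild libraries 7, 8 and 9.

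Stromal cell lists stood higher as well, with smaller sizes. Of 24 tested markers of fibroblasts, pericytes and myofibroblasts, 18 had all severe above (17.9% of all tested genes) and 1 all severe below all mild libraries (16.1%). Further, 18 had an unadjusted p under 0.05 upward (15.8% of all), 0 passed with edgeR or limma-voom and 14 with DESeq2 (6.91%), at a median of 1.02. The Wnt modulator gene Dkk3 stood at 1.41 ± 0.23, the intermediate filament gene Des at 0.998 ± 0.162, the myosin light chain gene Myl9 at 0.69 ± 0.12 and the receptor gene Pdgfrb at 1.32 ± 0.25 (log2 fold change; edgeR adjusted p = 0.0867 for each). Pdgfra, which marks fibroblasts, was the member nearest to Clca1, with 51.4, 151 and 78.1 CPM in severe libraries 13, 14 and 15, against 28.5, 27.2 and 21.8 CPM in mild libraries 7, 8 and 9. Of 11 tested smooth muscle markers, 7 had all severe above all mild libraries, 6 an unadjusted p under 0.05 upward and 0 passed with edgeR or limma-voom, against 4 with DESeq2 (median 0.70). In this list Tagln stood at 1.26 ± 0.29 (edgeR adjusted p = 0.0891) and Acta2, the smooth muscle actin gene, at 1.14 ± 0.28 (edgeR adjusted p = 0.1). The smooth muscle list shares Acta2, Tagln, Cnn1 and Des with the stromal one.

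**Figure D3:**
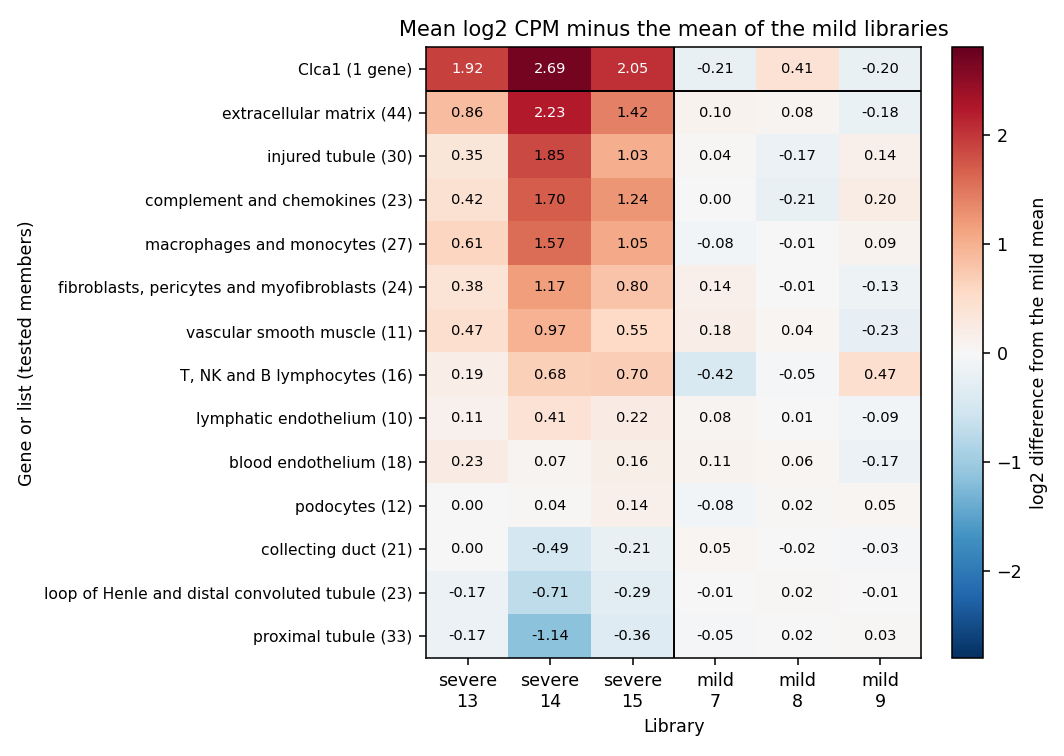
Log2 level of Clca1 and mean log2 level of each list, minus the mean of the mild libraries, in severe libraries 13, 14 and 15 (left) and mild libraries 7, 8 and 9 (right); the number of tested members stands in brackets. Clca1 is 1.92 above its mild mean in severe library 13, where the matrix list is 0.86 and the proximal tubule list -0.17.

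Macrophage and monocyte markers also stood higher with the order of Clca1. Of 27 tested members, 25 had all severe above all mild libraries, 27 an unadjusted p under 0.05 upward, 0 passed with edgeR or limma-voom and 24 with DESeq2, at a median of 1.13. Gp49a had 6.22, 8.61 and 7.56 CPM in severe libraries 13, 14 and 15, against 1.79, 2.58 and 2.196 CPM in mild libraries 7, 8 and 9, 1.76 ± 0.21 as log2 fold change (edgeR adjusted p = 0.0784). The lysosomal glycoprotein gene Cd68 stood 1.27 ± 0.17 higher (log2 fold change), the lysozyme gene Lyz2 1.73 ± 0.28 and the perforin-like gene Mpeg1 1.19 ± 0.20 (edgeR adjusted p = 0.0867 for each). In 25 of 27 the severe libraries ranked 14, 15, 13. No member of this list exceeded the log2 fold change of Clca1. Mmp12 (2.38), Clec4n (2.50) and F13a1 (2.33), described above as macrophage or myeloid genes, are outside this list and did exceed it.

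Of 23 complement and chemokine genes, 12 had all severe above all mild libraries, 17 an unadjusted p under 0.05 upward, 0 passed with edgeR or limma-voom and 13 with DESeq2 (median 1.24). Their leading members were C7 at 1.74 ± 0.28, Ccl9 at 1.91 ± 0.32, the complement protease gene C1s1 at 1.68 ± 0.28 and Cxcl14 at 1.53 ± 0.28 (log2 fold change; edgeR adjusted p = 0.0867 for each). Of 16 tested lymphocyte genes, 4 had all severe above all mild libraries (17.9% of all tested genes), 4 an unadjusted p under 0.05 upward (15.8% of all), 0 passed with edgeR or limma-voom and 2 with DESeq2 (median 0.61), and 3 of 16 had the order of Clca1, or 18.8% against 28.5% of all tested genes. Among 15 granulocyte and mast cell genes, 2 had enough reads for a test, the receptor gene Csf3r at 1.14 ± 0.38 (edgeR adjusted p = 0.144) and Kit at -0.05 ± 0.11 (edgeR adjusted p = 0.795), with 0 passing in edgeR, DESeq2 or limma-voom and 1, Csf3r, at an unadjusted p under 0.05. Of the others, Mpo, Prg2 and Camp had 0 reads in all libraries, whereas the neutrophil gene S100a9 had 0.93, 1.01 and 0.369 CPM in severe libraries 13, 14 and 15, against 0, 0.18 and 0.137 CPM in mild libraries 7, 8 and 9, and S100a8 averaged 0.843 CPM in severe and 0.3 CPM in mild kidneys. These 5 genes were chosen after their values were seen.

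Injured-tubule markers ranked the severe kidneys as Clca1 did but were closer to mild in library 13. Of 30 members, 17 had all severe above all mild libraries, 23 had an unadjusted p under 0.05 upward and 1 downward (background 7.89%), 0 passed with edgeR or limma-voom and 18 with DESeq2 upward. The median log2 fold change was 1.21, and 28 of 30 had the order 14, 15, 13. Aldh1a2, a retinoic acid enzyme gene, was the nearest to Clca1, with 22.0, 97.1 and 44.3 CPM in severe libraries 13, 14 and 15, against 11.7, 11.3 and 8.92 CPM in mild libraries 7, 8 and 9. Its log2 fold change was 2.36 ± 0.49, that of the cell cycle inhibitor gene Cdkn1a 1.02 ± 0.21 and that of the thymosin gene Tmsb10 1.36 ± 0.29 (edgeR adjusted p = 0.0867 for each). That of S100a6 was 1.45 ± 0.32 (edgeR adjusted p = 0.0873). The list averaged 0.35, 1.86 and 1.03 above its mild mean in severe libraries 13, 14 and 15.

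Tubule transport genes stood lower for the most part. Of 33 proximal tubule genes, 23 had all severe below all mild libraries, which 16.1% of all tested genes did, and 1 all above. At an unadjusted p under 0.05 there were 9 lower and 1 higher, 0 passed with edgeR or limma-voom, and DESeq2 called 5 lower (background 0.954%), at a median of -0.51. In 27 of the 33 the severe libraries ranked 13, 15, 14 from high to low, the reverse of Clca1, which 28.7% of all tested genes had. With library totals 22 of the 33 had the reverse order, and 13.3% of all tested genes. Keg1, a proximal tubule gene, had 857, 691 and 1048 CPM in severe libraries 13, 14 and 15, against 1409, 1482 and 1469 CPM in mild libraries 7, 8 and 9, -0.75 ± 0.19 as log2 fold change (edgeR adjusted p = 0.0993). The phosphate transporter gene Slc34a3 stood at -0.71 ± 0.22 (edgeR adjusted p = 0.132), the glucose transporter gene Slc5a2 at -0.60 ± 0.21 (edgeR adjusted p = 0.159) and the endocytic receptor gene Cubn at -0.51 ± 0.19 (edgeR adjusted p = 0.172). The 1 member with all severe above all mild libraries was the sulfate transporter gene Slc13a1, at 0.33 ± 0.13 (edgeR adjusted p = 0.178) and in the order of Clca1.

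Of 23 genes of the loop of Henle and distal convoluted tubule, 11 had all severe below all mild libraries, 7 an unadjusted p under 0.05 downward, 0 passed with edgeR or limma-voom and 6 with DESeq2 (median -0.35). They included the sodium-calcium exchanger gene Slc8a1 at -0.43 ± 0.08 (edgeR adjusted p = 0.0867), the calcium-sensing receptor gene Casr at -0.51 ± 0.12 (edgeR adjusted p = 0.0950) and the potassium channel gene Kcnj1 at -0.51 ± 0.15 (edgeR adjusted p = 0.115). Of 21 collecting duct genes, 5 had all severe below all mild libraries (16.1% of all tested genes) and 5 an unadjusted p under 0.05 downward (7.89%), 0 passed with edgeR, limma-voom or DESeq2 (median -0.26), and 17 of 21 had the reverse order, or 9 of 21 with library totals, where 13.3% of all tested genes had it. The ammonia transporter gene Rhcg stood at -0.44 ± 0.15 (edgeR adjusted p = 0.159). Severe library 13 thus held Clca1 at 3.76 times its mild mean while the proximal tubule list stood at -0.17, the loop of Henle and distal list at -0.17 and the collecting duct list at 0.00132 on the log2 scale.

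**Figure D4:**
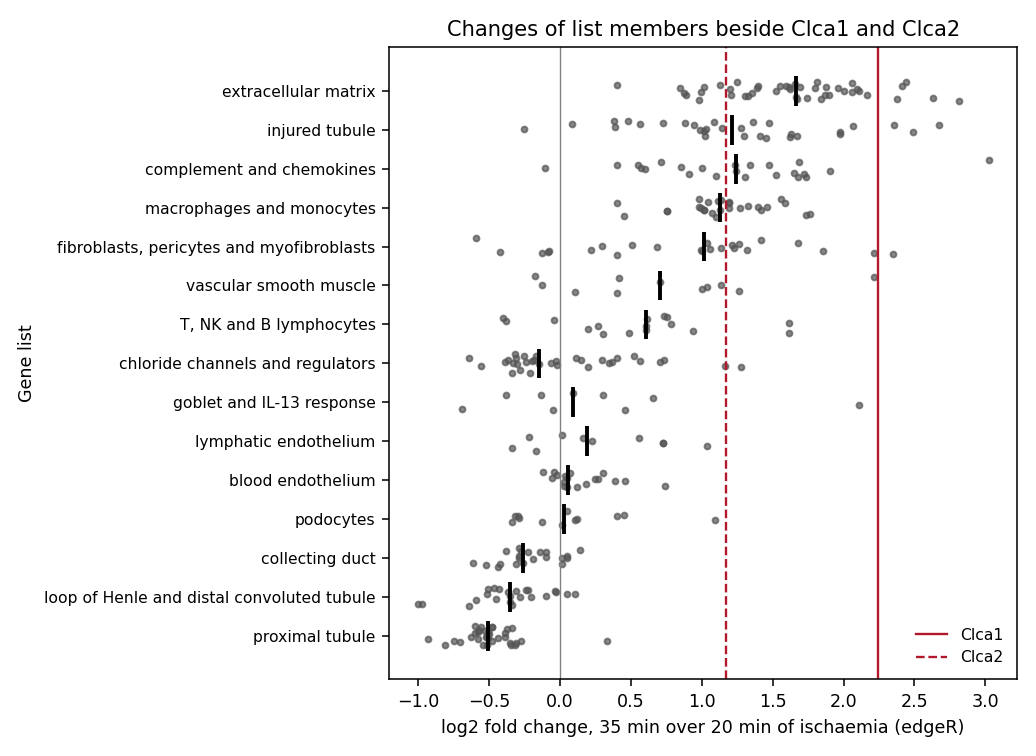
Log2 fold change of each tested list member, severe over mild (edgeR); black bars are list medians, the solid red line is Clca1 (2.24) and the dashed line Clca2 (1.17). No tested member of the macrophage, chloride channel, goblet or endothelial lists lies to the right of Clca1. To the right lie 5 matrix, 3 injured-tubule, 1 stromal and 1 complement gene, with the macrophage elastase gene Mmp12 (2.38) counted as matrix.

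Chloride channel genes and regulators, a list wider than Ano1 alone, stood higher in part and lower in part. Their upward counts were near the share over all tested genes. Of 33 tested channel genes and regulators, 7 had all severe above all mild libraries (17.9% of all tested genes) and 8 all severe below all mild libraries (16.1%). At an unadjusted p under 0.05 there were 6 higher (15.8% of all) and 6 lower (7.89%), 0 passed with edgeR or limma-voom, and DESeq2 called 2 higher and 1 lower. The median was -0.15, and 0.0237 with library totals as the scaling, where the median of all tested genes itself shifts by 0.169. The mean log2 level of the list was 0.0404, -0.0057 and 0.066 above its mild mean in severe libraries 13, 14 and 15, so the mean over the severe libraries and the median differed in sign. Ano1, the channel that human CLCA1 acts on, had 9.19, 19.5 and 15.6 CPM in severe libraries 13, 14 and 15, against 6.55, 5.75 and 7.41 CPM in mild libraries 7, 8 and 9. Its groups did not overlap and it had the order of Clca1, with a log2 fold change of 1.17 ± 0.27 that did not pass (edgeR adjusted p = 0.0887). Ano5, a relative of Ano1, stood at 1.28 ± 0.27 (edgeR adjusted p = 0.0867). Bsnd, the subunit of the renal chloride channels, stood at -0.64 ± 0.16 (edgeR adjusted p = 0.1) and the intracellular Clcn6 at -0.33 ± 0.09 (edgeR adjusted p = 0.107).

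Most of the goblet cell and interleukin-13 genes, to which the present-day name Clca1 points, had too few reads for a test. Among 28 list genes, 9 had enough reads for a test and 3, Retnlb, Il13ra2 and Itln1, had 0 reads in all libraries. The mucin gene Muc5ac had 3 reads in severe and 0 in mild kidneys in sum. The goblet cell factor Spdef had 3 in severe and 2 in mild kidneys, and Il13 had 1 in severe and 0 in mild kidneys. Other untested members were low, some higher in severe kidneys and some about level. Chil3 had 0.41, 0.11 and 0.31 CPM in severe libraries 13, 14 and 15, against 0 in each mild library. Retnla averaged 0.76 CPM in severe and 0.30 CPM in mild kidneys, with overlapping groups. Chil4 averaged 0.076 CPM in severe and 0.086 CPM in mild kidneys, with each library at or under the counting limit of 3 reads. It thus shows no direction. All these genes, and those at 0, were chosen after their values were seen. Of the 9 tested, 4 had all severe above all mild libraries, 3 an unadjusted p under 0.05 upward and 1 downward, 0 passed with edgeR or limma-voom and 2 with DESeq2 (median 0.0917). The leading member was Postn, also in the matrix list, at 2.11 ± 0.48 (log2 fold change; edgeR adjusted p = 0.0883). The epithelial mucin gene Muc1 stood at 0.65 ± 0.18 (edgeR adjusted p = 0.109) and the receptor gene Il4ra at 0.46 ± 0.14 (edgeR adjusted p = 0.122). The member on the lower side was the anion exchanger gene Slc26a4, also in the collecting duct list, at -0.38 ± 0.14 (edgeR adjusted p = 0.170).

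Lymphatic endothelium, where this gene is known to be expressed in the mouse, was followed through 10 tested markers. Of these, 4 had all severe above (17.9% of all tested genes) and 1 all severe below all mild libraries (16.1%), 4 an unadjusted p under 0.05 upward (15.8%), 0 passed with edgeR or limma-voom and 2 with DESeq2 (median 0.19). The receptor gene Nrp2 stood at 0.73 ± 0.16 (edgeR adjusted p = 0.0867), Sema3d at 1.04 ± 0.32 (edgeR adjusted p = 0.130), Pdpn at 0.73 ± 0.24 (edgeR adjusted p = 0.144) and Foxc2 at 0.55 ± 0.18 (edgeR adjusted p = 0.146). The summed level of the 12 listed genes was 108 to 148 CPM in severe and 80.2 to 98.7 CPM in mild kidneys. Nrp2 was its largest part, at a mean of 50.8 CPM in severe and 30.6 CPM in mild kidneys. The remaining tested markers besides Prox1, given after their values were seen, lay closer to no difference. Flt4 stood at 0.22, Gja4 at 0.16, Ccl21a at 0.0164, Mmrn1 at -0.17 and Reln at -0.22 (log2 fold change, edgeR adjusted p = 0.302 to 0.971). The lymphatic regulator Prox1, chosen after its values were seen, stood lower, at 8.14 ± 1.06 CPM in severe and 10.3 ± 0.981 CPM in mild kidneys (SD, n = 3 each, edgeR adjusted p = 0.215). The untested markers Lyve1 and Tbx1 were low and are also given after their values were seen. Lyve1 averaged 0.80 CPM in severe and 0.31 CPM in mild kidneys, with overlapping groups. Tbx1 averaged 0.099 CPM in severe and 0.109 CPM in mild kidneys. Of 18 blood endothelial genes, 3 had all severe above all mild libraries (17.9% of all tested genes), which is no more than the share over all genes. At an unadjusted p under 0.05, 2 were higher (15.8% of all; Ramp2 at 0.46 ± 0.10 and Eng at 0.39 ± 0.09, edgeR adjusted p = 0.0873 and 0.0885), 0 passed with edgeR or limma-voom and 2 with DESeq2 (median 0.0601).

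Podocyte genes had a median of 0.0311 over 12 tested, with 2 higher and 2 lower at an unadjusted p under 0.05, 0 passing with edgeR or limma-voom and 1 with DESeq2. Kirrel was the highest of them, at 1.09 ± 0.22 (edgeR adjusted p = 0.0867). Markers of tissue beside the kidney were low and uneven, and several were highest in mild library 7. The adipocyte gene Cfd had 8.20 CPM there and 0 CPM in mild libraries 8 and 9. It had 0.058, 0.169 and 2.40 CPM in severe libraries 13, 14 and 15. Adipoq, Plin1, Ucp1 and the urothelial gene Psca were also highest in mild library 7, while Krt5 and Sprr1a were highest in severe libraries. These genes were picked after their values were seen. The 12 urothelial and squamous genes summed to 23.6 to 44.5 CPM in severe and 15.0 to 38.7 CPM in mild kidneys, with overlapping groups. Of 10 tested, 0 passed with edgeR or limma-voom, 1 passed with DESeq2 and 1, Sprr1a at 1.29 ± 0.42 (edgeR adjusted p = 0.139), had an unadjusted p under 0.05. The 8 adipocyte genes summed to 48.6 to 56.8 CPM in severe and 36.7 to 74.3 CPM in mild kidneys, most of it Fabp4, the single tested member, at 0.0221 ± 0.1791 (edgeR adjusted p = 0.947; 0 at an unadjusted p under 0.05 and 0 with DESeq2 or limma-voom). Summed over its members, the matrix list had 4755 to 12090 CPM in severe and 2625 to 3123 CPM in mild kidneys, and the fibroblast list 1149 to 1744 CPM in severe and 911 to 1010 CPM in mild kidneys. The macrophage list summed to 1008 to 1947 CPM in severe and 570 to 669 CPM in mild kidneys, and the lymphocyte list to 31.1 to 46.4 CPM in severe and 21.8 to 34.7 CPM in mild kidneys. The injured-tubule list summed to 3998 to 12530 CPM in severe and 3067 to 3819 CPM in mild kidneys. Spp1, named after its values were seen, was the largest part of this sum. It averaged 4973 CPM in severe and 1866 CPM in mild kidneys, with 2294 CPM in severe library 13 and 2190 CPM in mild library 9. The lymphocyte sums overlapped between the groups, while those of the other 4 lists did not. The part of these cell types in the level of Clca1 was not tested.

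The libraries held 15240491 to 17730967 reads in genes. Kidney identity was plain from tubule genes in every library, with the proximal tubule list summing to 24770 to 49560 CPM in severe and 56280 to 57740 CPM in mild kidneys. No library was a repeat of another: between pairs of 1 group the chi-square over its degrees of freedom, which is near 1 for sampling alone, was 11.4 to 55.1 in severe and 3.13 to 4.41 in mild kidneys. Beside the 2 genes that passed in edgeR with all 6 libraries, 3269 passed without severe library 13 and 501 without severe library 14.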

How the data were processed

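Poly-A RNA of 6 kidneys was sequenced. The authors deposited 1 table of raw read counts per Ensembl gene, with gene lengths in another column. Per the submitters' processing notes, HTSeq 0.6.1, TopHat2 2.0.12 and Bowtie2 2.2.3 were used with mm10. What each tool did, how reads were counted and whether strand was used is not given in the sources used here, so reads of overlapping or antisense genes cannot be told apart. Column names gave the group of a library but matched no sample title, so no samples were paired.

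Genes were filtered with filterByExpr, scaled by TMM and tested with the robust quasi-likelihood test of edgeR 4.0.16 (R 4.3.3), with Benjamini-Hochberg adjustment over 14883 genes and a threshold of 0.05. SE is the log2 fold change over the root of F. Log2 levels for likeness and list means use a prior count of 2. Alternatives used DESeq2 1.42.0, limma 3.58.1, other scalings and filters, and 5 libraries. Sequences came from GENCODE M21 and RefSeq promoters and were compared with Biopython 1.88. The start regions of the other family members are not reported here. Figures were drawn with matplotlib 3.10.9.

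Clca1 and the 19 gene lists were chosen with earlier results of these data known. Lists are described by counts and medians without a test, and some share members. The text names Clca1 and its family, the 15 nearest genes, in each list up to 4 members of smallest p and the member nearest to Clca1, and the neighbours of Clca1. Other genes are marked as chosen after their values were seen. Counting limits cover counting error only.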

Additional observations from a re-analysis of the deposited data

How the results depend on the processing

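The log2 fold change of Clca1 kept its direction in all alternatives, between 1.97 and 2.50, with the lowest value without severe library 14 and the highest without mild library 8. Leaving out 1 library at a time gave 0 to 2 family members other than Clca1 past the threshold, 0 to 3269 of all tested genes and 0 to 198 list members, and 4 to 10 of the 15 nearest genes were kept. DESeq2 gave 1 family member, 1171 genes and 135 list members past the threshold, and limma-voom with quality weights 1, 5041 and 227. With no filter 146 genes and 11 list members passed, and with library totals as the scaling 1 gene; there 7486 tested genes shared the order of Clca1, against 4246 with TMM. With correlation as the measure of likeness 1 of the 15 nearest genes was kept. The cause of these changes was not tested. Summing the closest copies left no other tested family member to count. No paired analysis was possible because the column numbers of the groups do not match any sample number in the labels.

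Of 82 named genes, values turned sign in 6 of 1145 cases. Kit was 0.125 with library totals, and leaving out 1 library at a time gave -0.124 (severe 14) to 0.0425 (mild 9). Leaving out 1 library gave -1.27 to 0.495 for Psca, positive without mild library 7, and -0.14 to 0.223 for Fabp4, negative without mild library 9 or severe library 13 (-0.0687). Fabp4 was -0.0717 with limma-voom with quality weights. List medians turned sign for chloride channels (0.0237 with library totals), podocytes (-0.0501 to 0.0973 leaving out 1 library, negative without mild library 7 or severe library 15) and adipocytes (-0.349 with no filter, -0.0717 with limma-voom with quality weights, -0.883 to 0.223 leaving out 1 library, negative without mild library 8 or 9 or severe library 13). Depth limits the family members at or under 3 reads, for which a difference was not detectable.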
